A study of Homo sapiens with 6 samples.

Results

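The replication-dependent histone genes encode the linker histone H1 and the core histones H2A, H2B, H3 and H4 that package newly replicated DNA. They were taken as the protein-coding genes whose current symbol is H1-1 to H1-6 or belongs to the numbered series H2AC, H2BC, H3C and H4C. These symbols replaced older names that begin with HIST1, HIST2, HIST3 or HIST4. The rule gave 69 genes of the 78932 gene identifiers counted, namely 6 for H1, 17 for H2A, 18 for H2B, 13 for H3 and 15 for H4. Members were matched on symbol alone, with no threshold on a measured value, but the set was chosen with earlier results of these data known.

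Levels were measured by RNA sequencing in Karpas-45, an established human T-cell acute lymphoblastic leukaemia line described in the labels as leukemic blasts from bone marrow. The 3 control libraries were labelled WT and untreated. The 3 MEF2C-OE libraries came from untreated Karpas-45 cells transduced with a lentivirus that carries MEF2C, a MADS-box transcription factor, behind the EF1A promoter and linked to the fluorescent protein mCherry, and sorted as mCherry-positive 120 hours after transduction. The sources used here do not say whether the control cells received an empty vector or a sort, so transduction and sorting cannot be told apart from MEF2C itself. All replicates are called technical in the labels, so a p-value here covers no more than the spread between such libraries.

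Replication-dependent histone mRNAs are made during S phase, when NPAT and partner factors drive transcription in the histone locus body. Most of them end in a conserved stem-loop instead of a poly(A) tail. SLBP binds that stem-loop, U7 snRNP directs the cut just after it, and the exonuclease ERI1 and the decapping machinery remove the mRNAs when replication stops. Some of these genes also give spliced or longer, polyadenylated transcripts in which the ordinary end is bypassed. The label for library preparation says only TruSeq on total RNA, and the sources used here do not say whether poly(A) selection was used. A change in counted reads can therefore belong to either form of the mRNA.

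The stem-loops are shown because they define the class and because their presence or bypass bears on which mRNAs are read. A search of GENCODE 29 transcripts after the stop codon looked for 16 bases that open with GG and close with CC, form a stem of 6 base pairs (its last pair T with A, wobble pairs allowed inside) and hold a loop of 4 bases that begins with TT. It found them in 30 members, at 22 to 67 bases past the stop codon. The stem-loop was present in 29 of the 34 members whose model reaches at least 50 bases past the stop codon. Models of the other 35 members end sooner, so the pattern could not be looked for in full. Among all 19922 coding genes, 73 or 0.366% carried it. The 5 forms are printed as DNA with the stem in capitals and the loop in lower case.
Stem-loop of H2AC6, H2BC6, H2BC18, H2BC21 and 13 further members: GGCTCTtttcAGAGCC
Stem-loop of H4C2, H4C5, H4C8, H4C11 and H4C16: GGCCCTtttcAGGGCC
Stem-loop of H2BC4, H2BC5, H2BC7 and H3C8: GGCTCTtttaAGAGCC
Stem-loop of H4C9, H4C14 and H4C15: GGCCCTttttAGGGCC
Stem-loop of H2AC11: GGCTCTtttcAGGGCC

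The promoters are shown for members that moved, because H2A and H2B genes often lie head to head and share one promoter. Windows from 250 bases before to 50 bases after the start came from RefSeq (GRCh38.p14) and matched 64 of the 69 members. H2AC12, H3C11, H3C12, H4C1 and H4C3 had no match. Capitals mark the octamer ATTTGCAT, the CCAAT box and TATAAA, each searched on both strands; no match of one motif overlapped a match of another, although forward and reverse TATAAA can run together. Each window is written 5′ to 3′ on the strand of the named gene.
H2AC6, chr6:26123922-26124221, plus strand, between H2AC6 and H2BC4: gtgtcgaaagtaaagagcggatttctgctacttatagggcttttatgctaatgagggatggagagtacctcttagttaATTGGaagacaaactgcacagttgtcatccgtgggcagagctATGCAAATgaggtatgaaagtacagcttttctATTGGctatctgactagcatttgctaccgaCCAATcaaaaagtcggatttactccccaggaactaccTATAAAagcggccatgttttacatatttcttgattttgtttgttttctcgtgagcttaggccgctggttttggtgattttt
H2AC11, chr6:27132793-27133092, plus strand, between H2AC11 and H2BC11: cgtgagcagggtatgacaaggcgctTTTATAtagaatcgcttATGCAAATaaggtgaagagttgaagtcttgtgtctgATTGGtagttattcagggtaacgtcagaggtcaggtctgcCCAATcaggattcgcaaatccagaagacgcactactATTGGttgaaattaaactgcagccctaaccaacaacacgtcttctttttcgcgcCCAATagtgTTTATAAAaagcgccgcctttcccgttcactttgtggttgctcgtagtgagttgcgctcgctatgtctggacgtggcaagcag
H2BC21, chr1:149886633-149886932, minus strand: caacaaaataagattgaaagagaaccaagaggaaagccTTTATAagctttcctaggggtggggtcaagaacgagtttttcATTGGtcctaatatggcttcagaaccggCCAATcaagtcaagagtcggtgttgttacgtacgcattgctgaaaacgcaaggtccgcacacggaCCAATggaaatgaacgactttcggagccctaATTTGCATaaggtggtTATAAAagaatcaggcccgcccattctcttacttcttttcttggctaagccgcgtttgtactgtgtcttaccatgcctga
H2BC17, chr6:27893175-27893474, plus strand: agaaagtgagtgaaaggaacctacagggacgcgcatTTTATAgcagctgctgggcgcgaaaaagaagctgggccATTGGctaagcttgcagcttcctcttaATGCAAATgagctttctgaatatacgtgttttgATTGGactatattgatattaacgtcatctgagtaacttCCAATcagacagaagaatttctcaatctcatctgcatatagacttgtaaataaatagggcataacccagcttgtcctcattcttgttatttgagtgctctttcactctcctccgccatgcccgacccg
H1-2, chr6:26056421-26056720, minus strand: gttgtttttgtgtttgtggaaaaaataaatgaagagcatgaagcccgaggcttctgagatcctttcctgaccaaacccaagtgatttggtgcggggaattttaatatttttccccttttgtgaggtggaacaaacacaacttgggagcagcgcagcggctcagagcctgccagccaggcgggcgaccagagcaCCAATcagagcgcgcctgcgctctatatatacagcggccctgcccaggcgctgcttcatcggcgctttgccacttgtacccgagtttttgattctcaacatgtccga
H4C8, chr6:26285485-26285784, minus strand: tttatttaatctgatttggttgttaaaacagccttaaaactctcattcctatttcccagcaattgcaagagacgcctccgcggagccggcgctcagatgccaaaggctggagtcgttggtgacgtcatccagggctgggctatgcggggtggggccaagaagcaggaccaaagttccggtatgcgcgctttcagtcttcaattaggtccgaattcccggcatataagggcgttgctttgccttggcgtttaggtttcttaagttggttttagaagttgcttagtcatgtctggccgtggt

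Gene-assigned reads numbered 51198955 to 56405139 per control library and 48218497 to 56890745 per MEF2C-OE library. At that depth 3 reads, the most that a count of 0 allows, correspond to 0.0525 to 0.0617 CPM (read counts relative to the library total, with TMM scaling), a limit that covers counting error only. MEF2C was counted at 10, 1 and 0 reads in the control libraries and at 40, 29 and 41 reads in the MEF2C-OE libraries. These counts are 0 to 0.179 CPM and 0.596 to 0.727 CPM, both low levels. MEF2C was thus 3.28 higher on the log2 scale (SE 0.596, adjusted p = 1.5e-05 by edgeR). How much of the lentiviral MEF2C these counts hold was not tested. All 8 T-lineage markers were detected, with a summed level of 2950 to 2973 CPM in the control and 2449 to 2571 CPM in the MEF2C-OE libraries. The 14 markers of other cell types summed to 13.4 to 15.6 and 11.9 to 12.9 CPM, mostly CD79A, and MS4A1, CD33, HBB, EPCAM and KRT19 were at 0 in every library. Among the marker lists' genes, 6 T-lineage markers and COL1A1 fell, and their part in the histone results was not tested.

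Histone reads were more abundant in the MEF2C-OE libraries. Summed over all 69 members, they reached 582, 591 and 598 CPM in the control libraries and 780.4, 796 and 773 CPM in the MEF2C-OE libraries. Every MEF2C-OE library lay above every control library. The means were 590.3 ± 7.78 and 783 ± 11.4 CPM (SD, n = 3 each), a ratio of 1.33. Histone genes took 0.0578 to 0.0594% of assigned reads in the control and 0.0777 to 0.0803% in the MEF2C-OE libraries. In bulk RNA, a change in the share of cells that make histone mRNA and a change in the amount per cell cannot be told apart.

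H2B dominated the histone reads, with 56.9% of them over all libraries, followed by H2A with 23.5%, H4 with 8.99%, H1 with 8.27% and H3 with 2.43%. These are shares of reads and not of molecules. Summed H2B reads went from 322 ± 8.07 to 458 ± 2.42 CPM, a ratio of 1.42. Those of H2A were at 136.5 ± 3.45 and 186 ± 4.30 CPM (ratio 1.36) and those of H4 at 55.2 ± 2.46 and 68.3 ± 1.24 CPM (ratio 1.24), with no overlap between the groups in either type. Summed H3 reads were 15.7 ± 0.462 and 17.7 ± 1.86 CPM (ratio 1.13), and here the groups overlapped, at 15.2 to 16.1 against 15.8 to 19.5 CPM. Summed H1 reads went the other way, from 60.8 ± 3.61 to 52.9 ± 3.68 CPM (ratio 0.870, all SD with n = 3). The H1 share of histone reads was 10.1, 11.0 and 9.81% in the control libraries and 6.88, 7.06 and 6.33% in the MEF2C-OE libraries, while the H2B share was 53.1 to 55.4% and 58.0 to 59.2%. These sums describe the libraries and carry no test.

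**Figure D1:**
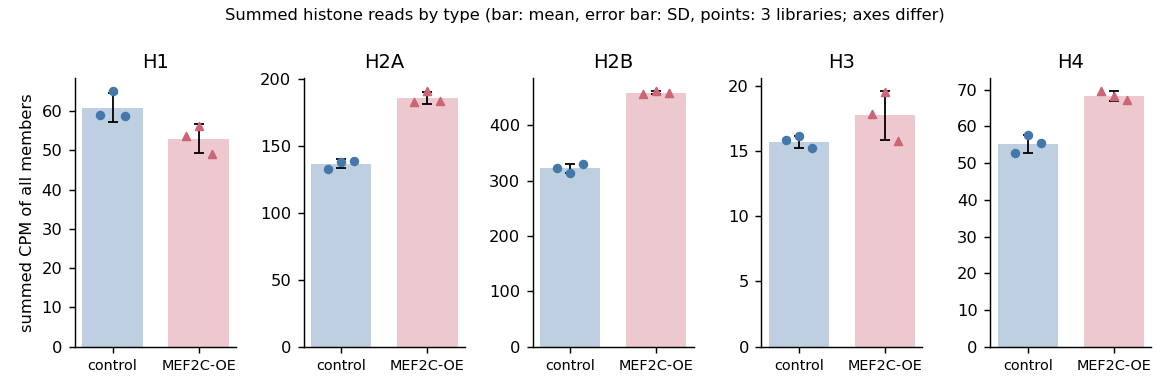
Summed CPM of all members of each histone type (y axis, a separate scale per type starting at 0) in the control and MEF2C-OE groups; bars are means, error bars SD and points the 3 libraries of each group. H2A, H2B and H4 stand higher in every MEF2C-OE library, H3 overlaps between 15.2 to 16.1 and 15.8 to 19.5 CPM, and H1 is lower, at 52.9 against 60.8 CPM on average.

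A few genes supplied most of these reads. H1-2 gave 73.1% of the H1 reads, H2AC6 71.5% of the H2A reads and H4C8 64.1% of the H4 reads, whereas H2BC11, H2BC5 and H2BC21 together gave 74.9% of the H2B reads and H3C10 gave 38.6% of the H3 reads. Without the leading member, the log2 ratio of the summed reads was 0.13 for H1 in place of -0.20, 0.43 for H3 in place of 0.17 and 0.15 for H4 in place of 0.31. The direction of the H1 sum thus rests on H1-2. At the other end, 7 members had no read in any library and 19 had at most 10 reads in each.

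Single genes were tested with edgeR's quasi-likelihood test across the 19086 genes that passed its count filter, and a gene is said to rise or fall where its Benjamini-Hochberg adjusted p is under 0.05. Of the 69 members 41 passed the filter. Among them 14 rose, against 20.8% of all genes tested, and 1 fell, against 20.2%, while 26 did not pass the test. The members that rose were 8 of 12 tested for H2B, 2 of 8 each for H2A, H3 and H4, and 0 of 5 for H1. At 25.0%, the shares for H2A, H3 and H4 are near that of all genes, and the 66.7% of H2B is above it. The median log2 fold change was 0.34 over the 41 members (range -0.88 to 0.92) and -0.01 over all genes tested. By type the median was 0.50 for H2B, 0.44 for H3, 0.37 for H2A, 0.09 for H1 and 0.05 for H4. The H3 median includes H3C1, H3C6, H3C11 and H3C12, with at most 32 reads in any library and SE of 0.45 to 0.66. H3C10 and H3C4, the H3 genes with the most reads, had values of -0.24 and 0.09, and H3C2 and H3C13 had 0.52 and 0.92. Control and MEF2C-OE values were without overlap in 20 of the 41, against 48.8% of all genes tested. Of these, 19 were higher in MEF2C-OE, against 24.4% of all genes tested, and 1 was lower, against 24.4%. The 28 untested members had at most 17 reads in any library and summed to 1.26 ± 0.225 CPM in the control and 1.25 ± 0.0832 CPM in the MEF2C-OE group (SD, n = 3).

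**Figure D2:**
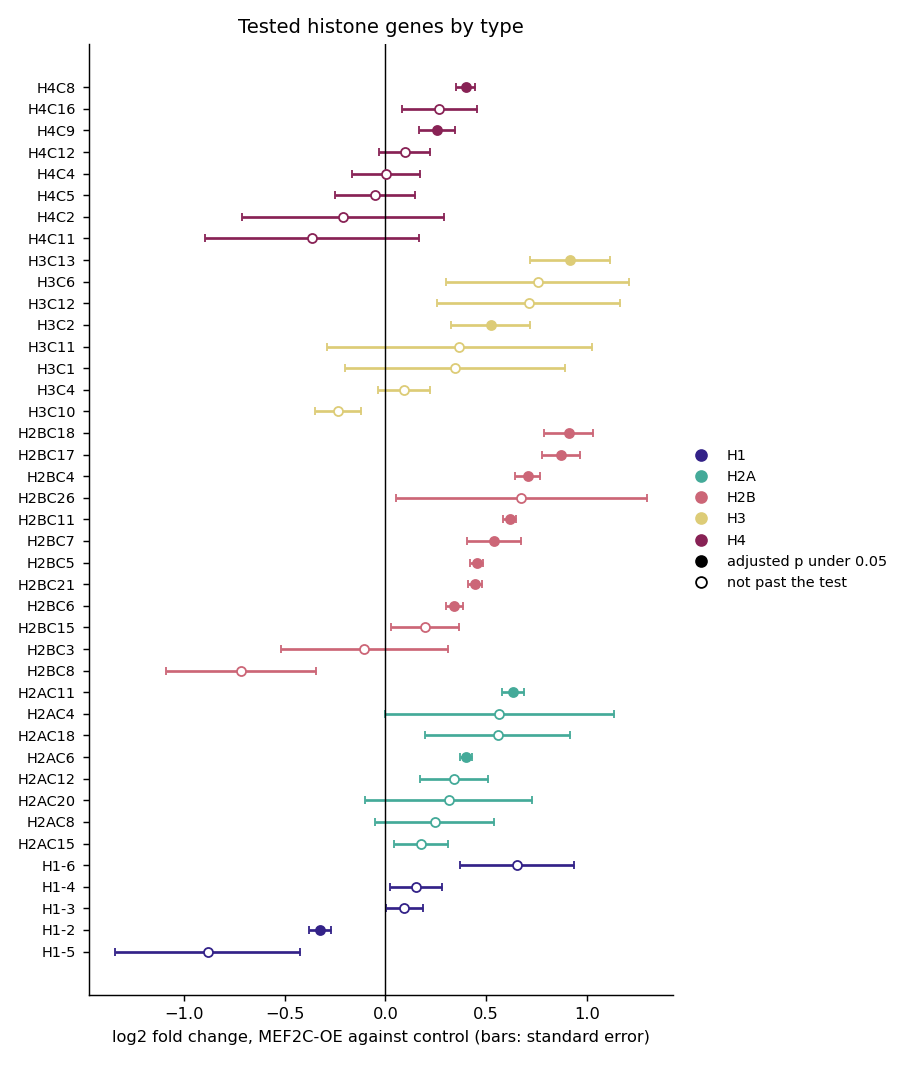
Log2 fold change of MEF2C-OE against control (x axis) for each of the 41 tested histone genes, coloured by type and ordered by value within a type; bars are standard errors and filled points have an adjusted p under 0.05. Filled points lie to the right of 0 for H2A, H2B, H3 and H4, and the single filled point of H1, H1-2, lies at -0.32.

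H2B genes showed the most calls. H2B pairs with H2A in the dimers at the outer faces of the nucleosome. H2BC11 (ENSG00000124635.10, chr6:27125897-27132750, minus strand) stood at 86.4, 83.7 and 90.2 CPM in the control libraries and at 133, 129 and 137 CPM in the MEF2C-OE libraries. All MEF2C-OE values lay far above all control values, and the log2 fold change was 0.62 (SE 0.032; edgeR adjusted p = 7.7e-20). H2BC5 (ENSG00000158373.9, chr6:26158146-26171349, plus strand) read 78.6, 74.0 and 79.5 CPM against 108, 105 and 104 CPM, again without overlap, for a log2 fold change of 0.45 (SE 0.033; edgeR adjusted p = 4.1e-15). H2BC21 (ENSG00000184678.11, chr1:149884459-149886652, minus strand) read 77.9, 76.2 and 76.5 CPM against 101, 112 and 101 CPM. Its control values were close together and its MEF2C-OE values more spread, and it rose by 0.44 (SE 0.035; edgeR adjusted p = 4.5e-14).

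The largest log2 fold changes among the H2B genes that rose were in genes with fewer reads, H2BC18 and H2BC17. H2BC18 (ENSG00000203814.7, chr1:149782689-149812373, minus strand) stood at 3.27, 4.05 and 4.23 CPM in the control and at 6.58, 7.69 and 7.40 CPM in the MEF2C-OE libraries, and its log2 fold change was 0.91 (SE 0.12; edgeR adjusted p = 3.6e-08). H2BC17 (ENSG00000274641.2, chr6:27893463-27893843, plus strand) went from 6.99, 6.08 and 6.57 CPM to 12.5, 10.5 and 12.9 CPM, a log2 fold change of 0.87 (SE 0.096; edgeR adjusted p = 3.9e-10). In both genes the lowest MEF2C-OE library exceeded the highest control library. H2BC4 (chr6:26114873-26123926, minus strand) rose from 18.1 ± 1.31 to 29.6 ± 1.37 CPM (0.71 on the log2 scale, edgeR adjusted p = 1.1e-12). H2BC6 (chr6:26172059-26184655, plus strand) rose from 45.1 ± 1.47 to 57.2 ± 1.14 CPM (0.34, adjusted p = 4.8e-09) and H2BC7 (chr6:26199520-26200715, plus strand) from 3.13 ± 0.0392 to 4.55 ± 0.165 CPM (0.54, adjusted p = 0.0010; SD, n = 3, edgeR). None of these 3 overlapped between groups. The other 4 tested H2B genes, H2BC3, H2BC8, H2BC15 and H2BC26, had log2 fold changes of -0.72 to 0.67, did not pass the test and overlapped between groups.

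**Figure D3:**
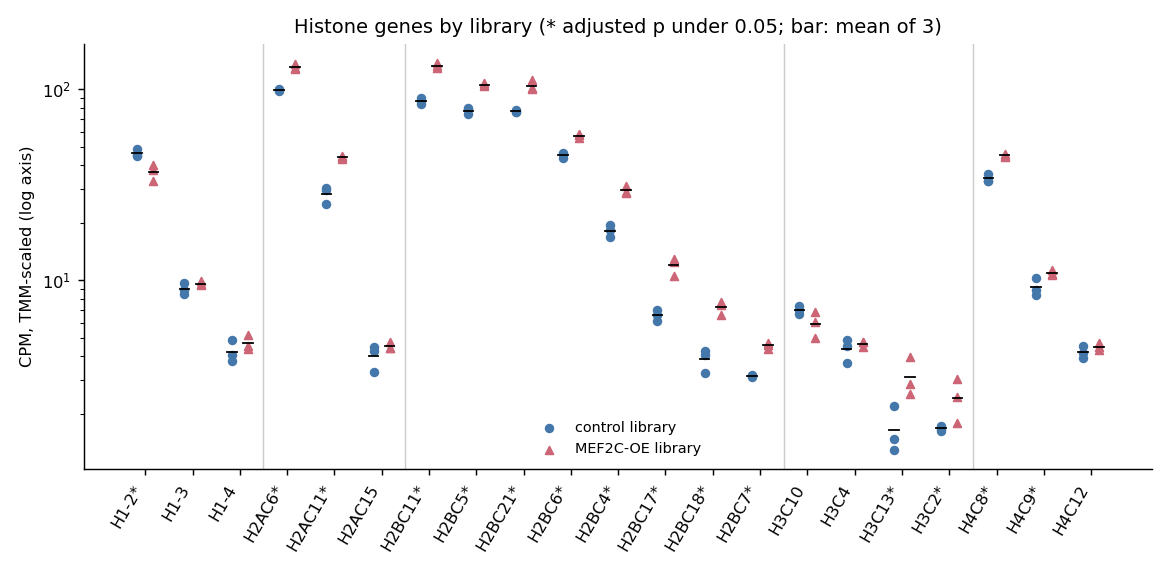
CPM on a log axis for each histone gene that rose or fell and for the 3 members with the most reads of each type, with 1 point per library (circles control, triangles MEF2C-OE), a bar at each mean and an asterisk at an adjusted p under 0.05. The H2B genes from H2BC11 to H2BC7 are separated in every library, and H1-2 is the only gene with an asterisk whose triangles lie below its circles.

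Among H2A genes, H2AC6 and H2AC11 rose. H2AC6 (ENSG00000180573.10, chr6:26124145-26139116, plus strand), with 16.8% of all histone reads, stood at 98.3, 99.1 and 101 CPM in the control libraries and at 129, 136 and 128 CPM in the MEF2C-OE libraries. The control values were within a narrow band well under the MEF2C-OE values, and the log2 fold change was 0.40 (SE 0.030; edgeR adjusted p = 9.2e-15). H2AC11 (ENSG00000196787.5, chr6:27133042-27135291, plus strand) read 25.1, 29.8 and 30.4 CPM against 44.2, 43.0 and 44.9 CPM, with no overlap and a log2 fold change of 0.63 (SE 0.055; edgeR adjusted p = 8.1e-13). All 6 remaining tested H2A genes had positive values that did not pass the test, from 0.18 in H2AC15 (adjusted p = 0.31) to 0.57 in H2AC4 (adjusted p = 0.47).

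H4 forms a tetramer with H3 at the centre of the nucleosome, and 2 of its 8 tested genes rose. H4C8 (ENSG00000158406.6, chr6:26277609-26285638, minus strand) stood at 33.2, 36.2 and 33.1 CPM in the control and at 44.5 to 45.7 CPM in the MEF2C-OE libraries. The groups were clearly apart, with a log2 fold change of 0.40 (SE 0.048; edgeR adjusted p = 3.4e-09). H4C9 (ENSG00000276180.3, chr6:27138588-27139881, plus strand) read 8.40, 8.85 and 10.2 CPM against 11.3, 10.7 and 10.8 CPM, where the highest control value came close to the lowest MEF2C-OE value. Its rise of 0.26 (SE 0.089; edgeR adjusted p = 0.019) was lost without MEF2C-OE replicate 1 (0.24), control replicate 1 (0.20) or control replicate 2 (0.23). H4C12, which follows H4C8 and H4C9 by reads, had a log2 fold change of 0.10 (adjusted p = 0.59), and the other 5 tested H4 genes lay between -0.36 and 0.27 without passing the test.

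H3 genes had few reads. H3C13 (ENSG00000183598.4, chr1:149813271-149813681, minus strand) stood at 1.29, 2.18 and 1.48 CPM in the control and at 2.54, 3.95 and 2.85 CPM in the MEF2C-OE libraries. Both groups were widely spread and did not overlap, and the log2 fold change was 0.92 (SE 0.20; edgeR adjusted p = 1.8e-04). H3C2 (ENSG00000286522.2, chr6:26031650-26032060, minus strand) read 1.63, 1.67 and 1.73 CPM against 2.44, 3.02 and 1.79 CPM, so that one MEF2C-OE library lay just above the control range. Its rise of 0.52 (SE 0.20; edgeR adjusted p = 0.031) was lost without any 1 library other than MEF2C-OE replicate 3 (0.33 to 0.55) and without the count filter (0.52). H3C10, the H3 gene with the most reads, read 6.65 to 7.30 CPM against 4.95 to 6.82 CPM. The groups overlapped, and its log2 fold change of -0.24 (adjusted p = 0.092) passed the test as a fall only without MEF2C-OE replicate 1 (-0.35). H3C4 had a value of 0.09 (adjusted p = 0.62).

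H1 genes differed among themselves. H1 binds the linker DNA where it enters and leaves the nucleosome. H1-2 (ENSG00000187837.5, chr6:26055787-26056428, minus strand) stood at 45.2, 48.9 and 44.7 CPM in the control libraries and at 37.8, 40.1 and 33.1 CPM in the MEF2C-OE libraries. Every MEF2C-OE value was under every control value, and H1-2 fell by 0.32 on the log2 scale (SE 0.054; edgeR adjusted p = 4.6e-06). It was the one member that fell. With the trend of GC content and transcript length removed, its value was -0.17 (adjusted p = 0.013). H1-3 was at 8.43 to 9.64 and 9.42 to 9.89 CPM with a value of 0.09 (adjusted p = 0.44), and H1-4 had a value of 0.15 (adjusted p = 0.39). H1-6, the testis H1, had a value of 0.65 at about 1 CPM (adjusted p = 0.060), H1-5 one of -0.88 (SE 0.46, adjusted p = 0.13), and H1-1 was not tested, with at most 14 reads in a library.

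Of the 14 members that rose, 11 have a gene model that is spliced or runs on past the stem-loop. These models are from GENCODE 29, which is not the release used for counting. Counted identifiers of members such as H1-1 carry later versions, and those of 4 members are absent from it. The split below may therefore differ for the counted models. In GENCODE 29, 26 members had a transcript of more than 1 exon or one with at least 100 bases past the stem-loop. These held 86.4% of the histone reads. Their summed level was 498 ± 9.46 CPM in the control and 689 ± 7.46 CPM in the MEF2C-OE group (SD, n = 3), a ratio of 1.38. Among the 19 tested 11 rose (57.9%, against 20.8% of all genes tested) and none fell (against 20.2%), with a median of 0.44. The other 43 members summed to 92.6 ± 3.86 and 94.5 ± 4.15 CPM, a ratio of 1.02. H1-2 alone made up 46.3 ± 2.27 and 37.0 ± 3.55 CPM of these sums, so the ratio depends on its fall. Of the 22 of these 43 members that were tested 3 rose, H2BC17, H3C2 and H3C13, and 1 fell, H1-2, with a median of 0.21. The share that rose, 13.6%, is under the 20.8% of all genes tested, and the fall compares with 20.2%. H2AC6, for example, has a model of 2 exons and 1128 bases past its stem-loop, and H2BC21 is a single exon that runs 1729 bases past it. Reads in such longer ends and reads in the ordinary short mRNA are summed in the deposited counts, so the form that changed cannot be told apart. The difference between these groups of members was described and not tested.

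Near-identical copies limit what can be counted. Of the 50-base words in the longest GENCODE 29 transcript of each member, at least 50% were also found in another gene for 16 members, which held 1.89% of the histone reads. Of these 6 were tested and H3C13 rose, with 80.4% of its words found elsewhere, so its value is uncertain. H3C14 and H3C15, and likewise H4C14 and H4C15, shared every word and had 0 or 1 reads in each library. H2AC18 shared 100% of its words and H2AC19 shared 97.1%, and H4C12 shared 100%, with H4C11. Even so, H4C12 had 206 to 267 reads per library and H2AC18 had 18 to 40, and both were tested. H2BC12 had at most 14 reads in a library and 74.1% of its words elsewhere, H2BFS among those genes. H3C4 and H2AC7 are overlapped on the same strand by AL031777.3, which holds 100% and 98.0% of their words. The 53 members with less sharing carried the pattern, with a summed ratio of 1.33. Of their 35 tested, 13 were higher (37.1%, against 20.8% of all genes tested) and 1 lower (against 20.2%).

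**Figure D4:**
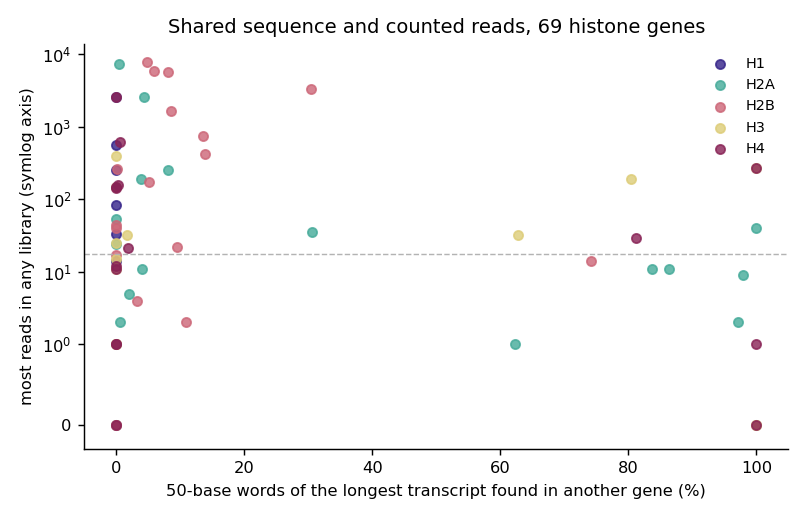
Share of each member's 50-base words that occur in another gene (x axis, %) against the most reads it had in any library (y axis, symmetric log scale), coloured by type; the dashed line lies above the 17 reads that no untested member exceeded. The members with the most reads all lie at low shares, and of those sharing at least 50% the highest, H3C4, has 273 reads.

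Neighbours that face each other were compared because such genes can share a promoter. Only some of their promoters are printed above. Of 11 pairs of an H2A and an H2B gene with starts 218 to 330 bases apart in the GENCODE gene models, 4 had both genes tested. Both rose in 2 pairs: H2AC11 and H2BC11 by 0.63 and 0.62, and H2AC6 and H2BC4 by 0.40 and 0.71. H2BC21 rose by 0.44 while H2AC20 had a value of 0.31 that did not pass the test, and H2AC8 and H2BC8 had values of 0.24 and -0.72, neither past the test. H2AC15 and H2BC15 are not among the 11 pairs, because the GENCODE model of H2BC15 starts further upstream, at position 27837760. Their RefSeq promoter windows nearly coincide, at 27838326-27838625 and 27838319-27838618. Both genes were tested and neither rose, with values of 0.18 and 0.20 (edgeR adjusted p = 0.31 and 0.38). Read numbers within a pair were often unequal: H2BC17 had 2981 reads in all libraries together and H2AC17 had 45, and H2BC7 had 1233 and H2AC7 had 31. H2AC17 is overlapped on the same strand by H3C12 and has 86.3% of its words in other genes. H2AC7 is overlapped by AL031777.3 and has 98.0% of its words elsewhere. The part of such overlap in these low counts was not tested. By position, the block of 34 members on chromosome 6 that holds H1-2 and H2AC6 had a summed ratio of 1.25. In it 7 of 21 tested were higher (33.3%, against 20.8% of all genes tested) and 1 lower (against 20.2%). The second block of chromosome 6, with 21 members including H2AC11, had a ratio of 1.46, with 4 of 13 tested higher, and the first block of chromosome 1, with 11 members including H2BC21, had a ratio of 1.40, with 3 of 5 tested higher.

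Promoter letters differed between the types. The octamer ATTTGCAT, the binding motif of OCT-1 (POU2F1), was present in 26 of 64 member promoters (40.6%) against 598 of 27305 genes (2.19%). It was found in 11 of 16 H2A promoters, 14 of 18 H2B promoters, 1 of 11 H3 promoters and none of H1 or H4. The H3 case is H3C4, in a window that is also the window of H2AC7, and the other window of H3C4 lacks the octamer. CCAAT was present in 84.4% of member promoters, but in 3 of 13 H4 promoters, against 39.7% of all genes, and TATAAA in 67.2% against 14.0%. Among H2A and H2B genes, 9 of 14 tested members with the octamer rose and 1 of 5 without it did, while the medians were 0.49 and 0.45. H2BC17, H2BC21 and the promoters shared by H2AC6 and by H2AC11 hold the octamer, the window of H1-2 holds 1 CCAAT box and that of H4C8 none of the 3 motifs.

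Genes that act on the histone genes and their mRNAs were read from the same fit, and each count is set against the 20.8% of all genes tested that rose and the 20.2% that fell. In the list for histone gene transcription 7 of 11 rose (63.6%) and 1 fell, with a median of 0.14. CASP8AP2 (FLASH), a component of the histone locus body, stood at 78.7, 75.8 and 69.1 CPM in the control and 103, 99.3 and 98.5 CPM in the MEF2C-OE libraries, without overlap (0.43 on the log2 scale, edgeR adjusted p = 5.1e-13). NPAT, the coactivator that CDK2 phosphorylates at the histone loci, read 75.6, 74.3 and 73.6 CPM against 91.9, 96.1 and 90.3 CPM, also without overlap (0.32, adjusted p = 1.6e-10, edgeR). POU2F1 rose by 0.33 and the cyclin genes CCNA2 and CCNE2 by 0.33 and 0.26, whereas HINFP, which acts on H4 promoters, fell by 0.25.

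The list for histone mRNA 3′ processing had 10 of 22 lower and 4 higher, with a median of -0.07. The share that rose, 18.2%, is near the 20.8% of all genes tested, and the falls compare with 20.2% of all genes. SLBP rose slightly, from 131, 130.1 and 133 CPM to 141, 143 and 145 CPM (0.12 on the log2 scale, edgeR adjusted p = 2.4e-04). LSM11, a subunit specific to the U7 particle, had a value of 0.01 (adjusted p = 0.88). The largest falls were in genes that also serve other RNAs: the Sm protein genes SNRPF (-0.47) and SNRPE (-0.34), the kinase gene CDK9 (-0.38), the scaffold gene SYMPK (-0.25) and the cap-binding gene NCBP2 (-0.25). In the list for histone mRNA decay and translation 8 of 12 rose (66.7%, against 20.8% of all genes tested) and none fell (against 20.2%), with a median of 0.13. ERI1 rose from 29.8, 32.3 and 28.4 CPM to 40.8, 40.2 and 35.8 CPM (0.37, adjusted p = 4.5e-07, edgeR), and the groups did not overlap. The kinase genes SMG1 and PRKDC rose by 0.50 and 0.37, the exonuclease gene XRN1 by 0.22 and PATL1 by 0.20.

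Of 22 histone chaperone and related genes 10 rose (45.5%, against 20.8% of all genes tested) and none fell (against 20.2%), with a median of 0.02. CHAF1A and CHAF1B, subunits of the chromatin assembly factor that deposits H3 and H4 behind the fork, rose by 0.35 and 0.24, UBN1 by 0.30, HAT1, which acetylates new H4, by 0.25 and the H3-H4 co-chaperone gene DNAJC9 by 0.24. NASP, a chaperone of soluble H3 and H4, had a value of 0.02 (adjusted p = 0.61). Of 34 further S-phase genes 25 rose (73.5%, against 20.8% of all genes tested) and 1 fell (against 20.2%), with a median of 0.16. GINS3 rose by 0.49, POLA1 by 0.46 and PRIM1 by 0.37, and POLA2 fell by 0.39. Their part in the histone result was not tested.

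**Figure D5:**
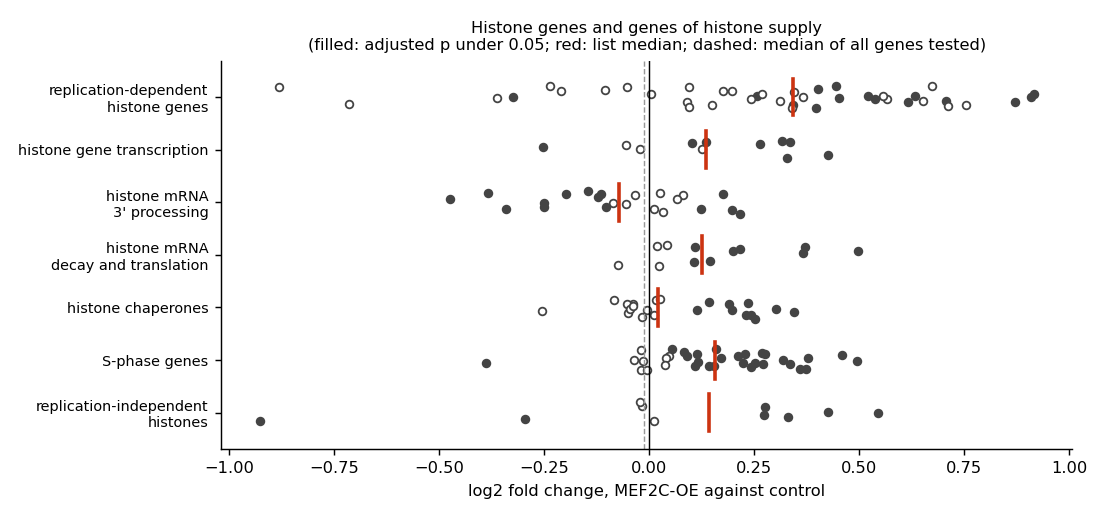
Log2 fold change of MEF2C-OE against control (x axis) for the tested histone genes and for the tested genes of 6 lists (rows); filled points have an adjusted p under 0.05, red marks are list medians and the dashed line is the median of all genes tested. The median is 0.34 for the replication-dependent histone genes, -0.07 for 3′ processing genes and between 0.02 and 0.16 for the others.

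Replication-independent histones, whose mRNAs are polyadenylated, showed both directions. Of 12 genes 10 were tested, 5 rose (against 20.8% of all genes tested) and 2 fell (against 20.2%), with a median of 0.14. H2AX, whose phosphorylated form marks DNA breaks and whose mRNA can end either way, stood at 204, 203 and 206 CPM in the control libraries and at 289, 318 and 286 CPM in the MEF2C-OE libraries. Its groups were far apart, and it rose by 0.54 (SE 0.029; edgeR adjusted p = 4.3e-16). MACROH2A2 rose by 0.43, H2AZ2 by 0.33 and MACROH2A1 by 0.27. H3-3A fell from 173 ± 6.63 to 141 ± 3.42 CPM (SD, n = 3), by 0.30 on the log2 scale (edgeR adjusted p = 1.1e-11), while H3-3B, which encodes the same H3.3 protein, had a value of 0.01 (adjusted p = 0.73). H2AZ1 and H1-10 each had a value of -0.02 (adjusted p = 0.86 and 0.78).

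Log2 fold changes also went with GC content across genes. The median GC content was 53.4% in the 39 tested members with a value and 48.4% in all tested genes with one, and the tenth of all genes richest in GC had a median log2 fold change of -0.19. With the trend of GC content and transcript length removed, 19 of the 41 tested members rose and 1 fell. The share of all genes that rose in that setting is not given here. Whether the gain in calls is particular to the histone genes was not tested. H1-4 (0.34), H2AC15 (0.41), H3C4 (0.32) and H4C12 (0.35) were then among those that rose.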

How the data were processed

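RNA of 3 control and 3 MEF2C-OE libraries was counted per gene. The deposited values are raw read counts, made with Trim Galore, STAR and HTSeq on hg38, per the submitters' processing notes; the sources used here give no versions, annotation release, strand setting or filters. By HTSeq's summary lines 70.9 to 71.3% of reads were assigned to genes, 20.9 to 21.8% had no feature, 3.31 to 3.46% were ambiguous and 4.03 to 4.68% were not unique; these lines were left out of library sizes.

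Counts were fitted with edgeR 4.0.16 in R 4.3.3 (filterByExpr, TMM, robust quasi-likelihood test) over all 6 libraries with no covariate, and p-values were adjusted over the 19086 genes tested. CPM are TMM-scaled. The biological coefficient of variation was 3.67%. Members were matched on identifiers without their version, and 61481 of 78932 identifiers had a symbol. Replicates within a group differed by more than sampling noise (chi-square per degree of freedom 3.08 to 5.17). On simulated counts for this comparison over 19086 genes, 17, 29, 34 and 46 of 50 genes changed 1.25-, 1.5-, 2- and 4-fold were called, and 21 of 18886 unchanged genes. DESeq2 1.42.0 was an alternative test. Other alternatives were other scalings, other count filters, removal of the GC and length trend, a replicate block and leaving out each library.

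Named with values were all members called, the 3 members of each type with the most reads, up to 5 called genes per list with a mean of at least 1 CPM, 6 preset supply genes, 6 preset replication-independent histones and MEF2C; 2 genes that this rule names are not reported here. Other genes named (untested or uncalled members, HINFP, the marker genes) were chosen after their values were seen. Members and lists were chosen with earlier results of these data known. Gene positions and models are from GENCODE 29, which is not the release used for counting. In it 65 members matched by identifier and 4 by position and older symbol. Figures were drawn with matplotlib 3.10.9.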

Additional observations from a re-analysis of the deposited data

How the results depend on the processing

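Over 14 alternatives, 12 to 20 members rose and 1 to 2 fell, and 6898 to 7821 genes were called in all. Leaving out 1 library gave 12 to 14 members higher and 1 to 2 lower; it was 2 lower without MEF2C-OE replicate 1 and without MEF2C-OE replicate 2. The number tested was 27 with a filter of 1 CPM in 3 libraries and 62 with no filter, where 15 and 13 rose. The replicate block, with TMM scaling and no GC correction, gave 15 members higher and 1 lower among 7798 genes called. Same-numbered libraries did not deviate together (correlations -0.0031 to 0.012). These values gave no sign of pairing by number, but they cannot exclude a shared batch. Block and GC trend together gave 20 members higher. Of 21 tested members named by rule, 14 had the same call throughout, among them H1-2 (-0.38 to -0.17). Without the member with the most reads, the log2 ratio of the sum was 0.13 for H1 (reversed), 0.55 for H2A, 0.47 for H2B, 0.43 for H3 and 0.15 for H4. The causes were not tested. Members at a few reads per library could not have shown a moderate change.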
